A study of Mus musculus with 6 samples.

Results

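Complexes II, III, IV and V of the respiratory chain were examined through the nuclear genes that encode their subunits and named assembly factors. All protein-coding genes whose symbols begin with Sdh followed by a to d, Uqcr, Cox followed by a digit, or Atp5 were taken, together with Cyc1 and Cycs. This gave 61 genes of the 41721 rows in the table of counts, or of its 20461 protein-coding rows, and 46 of them encode subunits or cytochrome c while 15 encode assembly factors or related proteins. RNA was sequenced from mouse abdominal aortic smooth muscle cells (MASMCs) in 6 libraries, 3 from Pdk4fl/fl cells and 3 from Pdk4SMKO cells. Pdk4fl/fl mice carry loxP sites around part of Pdk4, which encodes a kinase that inhibits the pyruvate dehydrogenase complex. Pdk4SMKO mice carry the same alleles and the tamoxifen-inducible Myh11-CreERT2 transgene, which acts in smooth muscle and is carried on the Y chromosome, so only males can have it. Both genotypes received tamoxifen, the cells came from mice of 10 weeks and were used at passages 4 to 8, and both were treated with Ang II, by the methods at 1 μM for 48 h, so no untreated library enters the comparison.

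Complex II oxidises succinate and hands the electrons to ubiquinone, complex III passes them on to cytochrome c, and complex IV reduces oxygen with them. Complexes III and IV pump protons across the inner mitochondrial membrane, and complex V, the ATP synthase, uses the gradient to make ATP. Complex II also belongs to the tricarboxylic acid cycle and is built from nuclear genes alone, whereas the core of complex IV, and parts of complexes III and V, are encoded by mitochondrial DNA, for which the table holds no row.

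Library totals were 16526044 to 22481670 counts. Levels are given as CPM, the counts scaled to a common library total after TMM normalization, and 3 counts, taken as the floor of detection, were worth 0.132 to 0.227 CPM. Such floors, and the intervals given below, cover counting error only. Pdk4 itself was at 38.0, 35.1 and 31.9 CPM in the Pdk4fl/fl libraries and at 4.83, 9.06 and 6.92 CPM in the Pdk4SMKO libraries. The genotypes differed widely, with 59.3% of the 14085 genes tested past an adjusted p of 0.05 and a 2-fold change in edgeR's quasi-likelihood test. Library correlations were at least 0.981 within a genotype and at most 0.748 between genotypes. The 8 smooth muscle markers had a summed level of 785 to 811 CPM in Pdk4fl/fl and 723 to 954 CPM in Pdk4SMKO cells. Behind these sums 4 of the markers rose (log2 fold changes of 1.59 for Acta2, 1.97 for Myh11, 2.34 for Lmod1 and 2.83 for Des) and 4 fell (-2.28 for Smtn, -2.26 for Tagln, -1.495 for Cnn1 and -0.58 for Myocd). Des had 5, 1 and 0 reads in Pdk4fl/fl cells, 2 of these libraries being under the floor. The sum of 7 mesothelial markers was 74.2 to 99.99 CPM against 707 to 1298 CPM, and Lrrn4 and Wt1 had 0 reads in the second Pdk4fl/fl library. Krt19 made up most of it in Pdk4fl/fl cells and rose from 78.0, 94.1 and 65.5 CPM to 342, 218 and 276 CPM. The sum of 8 macrophage markers was 22.7 to 40.1 CPM against 62.8 to 64.1 CPM, with C1qa, C1qb, Adgre1 and Tyrobp at 0 in Pdk4fl/fl cells. Most of that sum was Cd68 in Pdk4fl/fl cells, which fell from 37.9, 34.5 and 21.3 CPM to 6.81, 3.14 and 2.94 CPM, and Cd14 in Pdk4SMKO cells, which rose from 2.13, 1.54 and 1.29 CPM to 32.3, 50.6 and 54.1 CPM. The sum of 8 endothelial markers was 14.1 to 23.7 CPM against 2.94 to 5.62 CPM, with Cldn5 at 0 in every library and Tie1 at 0 in Pdk4fl/fl cells. The sum of 8 proliferation markers was 1244 to 1350 CPM against 372 to 571 CPM. Of these 8, 4 were lower and 1 higher at an adjusted p under 0.05 in edgeR. Mcm2, Pcna, Ccnb1 and Mki67 fell (log2 fold changes of -2.97, -2.18, -1.87 and -0.77) and Aurkb rose (1.85). Birc5, Cdk1 and Top2a did not pass the test. The part of these cell markers in the values below was not tested.

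More subunit mRNAs were lower than higher in Pdk4SMKO cells in complex III with cytochrome c (6 lower and 1 higher of 10 tested), complex IV (7 and 2 of 12) and complex V (12 and 0 of 15), and those of complex II moved in opposite directions (1 lower and 2 higher of 4). Of the 61 genes, 55 had enough counts to be tested, and 31 of these fell and 10 rose at an adjusted p under 0.05, which is 56.4% and 18.2% of them. Over all genes tested, 37.1% were lower and 42.0% higher at that threshold, or 79.1% in either direction. With a 2-fold change required as well, 15 were lower (27.3%, against 26.5% of all genes) and 5 higher (9.09%, against 32.8% of all genes). The 2-fold count of lower genes was therefore near the share over all genes. The values of 42 of the 55 genes did not overlap between the genotypes, which is 76.4%, against 81.8% of all genes. Of the 41 subunit genes tested, 26 were lower and 5 higher, and of the 14 assembly factors or related proteins 5 were lower and 5 higher, a difference that was not tested.

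The 55 genes together gave a median log2 fold change of -0.67, whereas that of all genes tested was 0.12. Without TMM factors, that is with library size alone, the medians were -0.05 and 0.72, so that the distance to all genes changed little (-0.79 with TMM and -0.78 with library size) while 12 genes fell and 18 rose. Directions below are therefore those after TMM normalization, and ratios of 2 genes within the same library, on which scaling has no bearing, are given beside them. The third Pdk4fl/fl library stood apart from the other two for these genes, with a median difference of 0.59 on the log2 scale against 0.00 over all genes. Without it, 28 genes were lower and 14 higher at an adjusted p under 0.05, and 9 and 4 with a 2-fold change. Counts also rose with gene length more steeply in Pdk4SMKO libraries (slopes of 0.77 to 0.79 on log2 scales) than in Pdk4fl/fl libraries (0.45 to 0.58), and the 55 genes are short, with a median length of 1756 bases against 3670 for all genes. With this trend removed, their median was -0.55 and that of all genes -0.12, and 30 genes were lower and 11 higher. In bulk RNA, fewer cells of a type and less RNA per cell cannot be told apart.

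**Figure D1:**
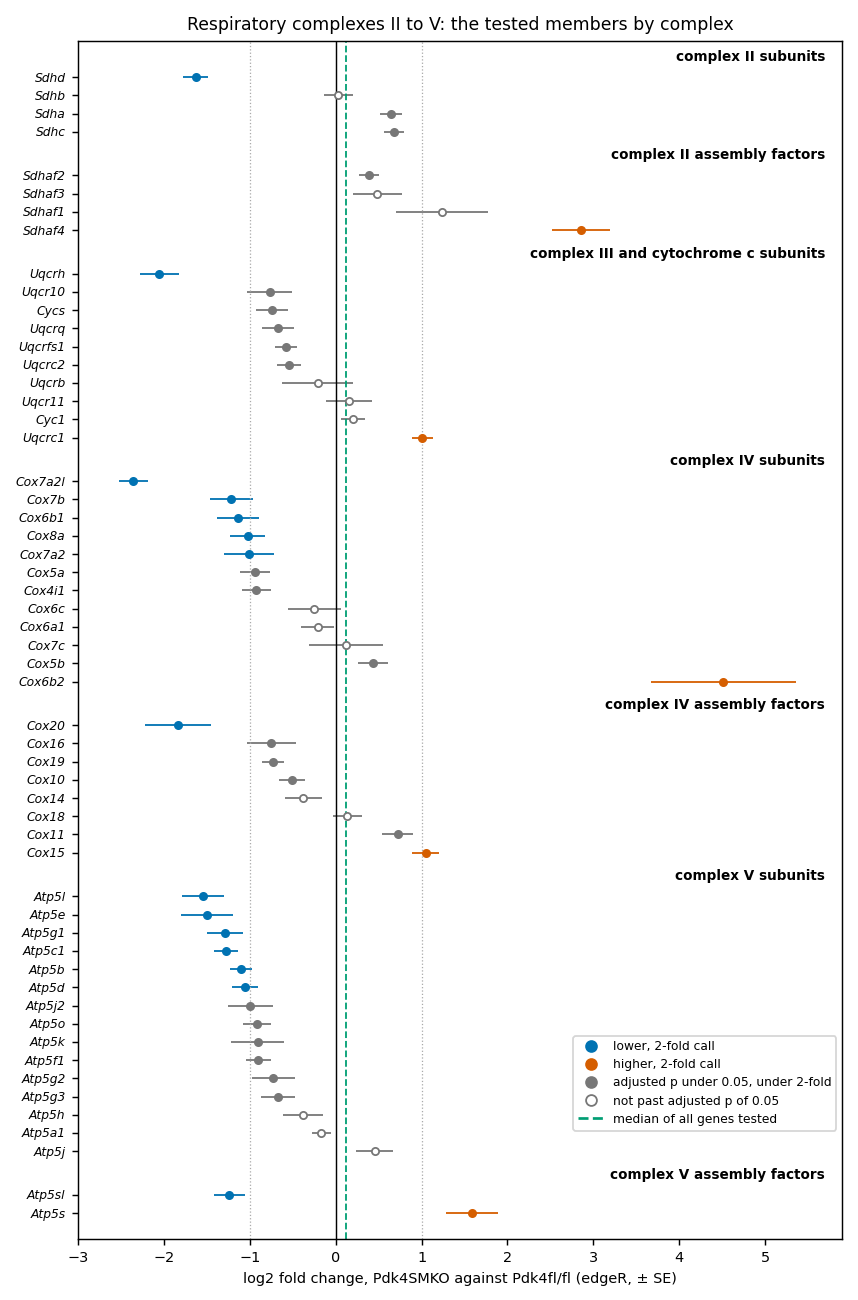
The plot gives the log2 fold change of the 55 tested genes in Pdk4SMKO against Pdk4fl/fl cells, with its standard error, grouped by complex, and the dashed line marks the median of all genes tested. Most subunit genes of complexes IV and V lie left of 0, whereas Sdhd, Sdha and Sdhc of complex II lie on both sides of it.

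The 4 subunit genes of complex II did not move together. Sdha, which encodes the flavoprotein subunit that oxidises succinate, was higher, as was Sdhc, which encodes a membrane anchor, whereas Sdhd, the gene of the other anchor, was lower. The promoters of Sdha and Sdhd are shown because these 2 subunits of the same complex moved apart. Each runs from 250 bases before to 50 bases after the RefSeq start site on mouse assembly GRCm38.p6, Sdha at chr13:74350191-74350490 and Sdhd at chr9:50603800-50604099, both on the minus strand. Capitals mark the motifs searched on both strands, which were GCGCATGCG for NRF1, CCGGAAG for ETS factors, TCAAGGTCA for estrogen-related receptors and AAGATGGCG for YY1.

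Sdha: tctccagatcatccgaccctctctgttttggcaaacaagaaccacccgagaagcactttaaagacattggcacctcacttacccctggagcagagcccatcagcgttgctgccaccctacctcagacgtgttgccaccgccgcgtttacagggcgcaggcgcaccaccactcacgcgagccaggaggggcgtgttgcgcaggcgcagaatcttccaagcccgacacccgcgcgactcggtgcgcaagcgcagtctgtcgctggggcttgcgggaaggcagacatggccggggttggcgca
Sdhd: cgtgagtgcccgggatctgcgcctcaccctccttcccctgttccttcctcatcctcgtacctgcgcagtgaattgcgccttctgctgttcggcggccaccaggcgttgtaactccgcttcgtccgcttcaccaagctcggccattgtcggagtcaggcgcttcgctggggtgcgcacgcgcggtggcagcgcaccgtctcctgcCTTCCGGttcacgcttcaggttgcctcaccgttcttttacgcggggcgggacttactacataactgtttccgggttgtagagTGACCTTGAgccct

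The Sdhd promoter held an ETS match before the start site and a TCAAGGTCA match after it, both on the strand opposite to the one printed, and the Sdha window held no match to the 4 motifs.

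Sdha was at 117, 127 and 144 CPM in Pdk4fl/fl libraries and at 179, 214 and 214 CPM in Pdk4SMKO libraries. Sdhc was at 56.9, 61.8 and 64.7 CPM against 90.6, 99.98 and 102 CPM. In both genes all Pdk4SMKO libraries lay above all Pdk4fl/fl libraries, and the log2 fold changes were 0.64 ± 0.13 (SE) for Sdha and 0.68 ± 0.12 (SE) for Sdhc, with adjusted p = 0.000941 and 0.000369 in edgeR. Sdhd was at 155, 161 and 211 CPM against 60.7, 53.8 and 55.3 CPM, a log2 fold change of -1.63 ± 0.14 (SE) with adjusted p = 2.89e-06 in edgeR. Its lowest Pdk4fl/fl library was more than 2-fold above its highest Pdk4SMKO library. Sdhb, the gene of the iron-sulfur subunit, was at 24.3, 27.1 and 36.8 CPM against 30.0, 29.7 and 30.2 CPM, so that the genotypes overlapped and the log2 fold change was 0.03 ± 0.17 (SE), which did not pass the test.

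Within libraries, 133, 127 and 147 reads fell on Sdhd for every 100 on Sdha in Pdk4fl/fl cells, and 33.9, 25.2 and 25.8 in Pdk4SMKO cells. The ratio was 4.81-fold lower in Pdk4SMKO cells. The ratio of Sdhc to Sdha, by contrast, was 48.6, 48.6 and 45.0 reads per 100 against 50.6, 46.8 and 47.7, a log2 difference of 0.03 that lay within the spread. For the Sdhd ratio the exact two-sided permutation test gave p = 0.1, the smallest that 3 libraries against 3 allow, and for the Sdhc ratio it gave p = 0.6. The ratio of Sdhb to Sdha was 1.51-fold lower, without overlap. These pairs of genes were chosen after their values had been seen. A scaling factor per library cancels in such ratios, so the ratio of Sdhd to Sdha did not depend on the choice of factors. Removal of the length trend does not cancel in it, because Sdha has 3883 bases and Sdhd 1287. With that trend removed, Sdhd was still lower and Sdha still higher, but both changes were smaller. The summed level of the 4 subunit genes was 354, 377 and 456 CPM against 360, 397 and 402 CPM, and the genotypes overlapped.

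The 4 assembly factors of complex II had positive fold changes throughout, and 2 of them passed the test, where 42.0% of all genes were higher. Sdhaf4, whose product is a chaperone of flavinylated SDHA, was at 1.40, 1.21 and 2.88 CPM in Pdk4fl/fl and at 10.5, 12.0 and 16.4 CPM in Pdk4SMKO cells, 7.12-fold higher (adjusted p = 2.3e-05, edgeR). Sdhaf2, whose product helps attach FAD to SDHA, was at 36.5, 36.0 and 34.1 CPM against 45.0, 44.2 and 50.2 CPM, a log2 fold change of 0.39 ± 0.12 (SE). With the length trend removed its log2 fold change was 0.19 and did not pass the test (adjusted p = 0.186, edgeR). Sdhaf1 and Sdhaf3, which encode chaperones of the iron-sulfur subunit, had log2 fold changes of 1.24 ± 0.53 (SE) and 0.48 ± 0.29 (SE), and neither passed the test. Sdhaf1 rested on 2 to 22 reads per library.

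In complex III with cytochrome c, 6 of 10 genes were lower and 1 was higher at an adjusted p under 0.05. Over all genes tested, 37.1% were lower and 42.0% higher. The median log2 fold change of -0.56 became 0.05 with library size alone. The hinge subunit gene Uqcrh and the core protein gene Uqcrc1 stood at the ends of the range. Their promoters are given for that reason, Uqcrc1 at chr9:108936398-108936697 on the plus strand and Uqcrh at chr4:116075021-116075320 on the minus strand of GRCm38.p6, with motifs in capitals as above.

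Uqcrc1: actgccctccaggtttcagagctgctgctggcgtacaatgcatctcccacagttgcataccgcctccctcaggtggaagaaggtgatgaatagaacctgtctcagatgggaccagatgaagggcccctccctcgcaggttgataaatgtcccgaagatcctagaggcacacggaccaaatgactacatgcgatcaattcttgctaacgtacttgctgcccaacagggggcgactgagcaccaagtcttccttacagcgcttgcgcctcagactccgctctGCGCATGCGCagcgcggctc
Uqcrh: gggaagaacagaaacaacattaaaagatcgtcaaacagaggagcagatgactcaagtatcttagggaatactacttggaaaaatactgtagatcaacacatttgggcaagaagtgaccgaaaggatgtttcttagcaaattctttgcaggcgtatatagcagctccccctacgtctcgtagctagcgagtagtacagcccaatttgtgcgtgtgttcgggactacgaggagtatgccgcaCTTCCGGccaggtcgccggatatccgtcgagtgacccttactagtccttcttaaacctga

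Uqcrc1 held GCGCATGCG after the start site, once on each strand in overlapping positions, and Uqcrh a CCGGAAG match, on the opposite strand, just before it.

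Uqcrh, whose product sits where cytochrome c docks, was at 140, 150 and 259 CPM in Pdk4fl/fl libraries and at 39.7, 45.4 and 47.2 CPM in Pdk4SMKO libraries. All 3 Pdk4SMKO libraries lay far below the lowest Pdk4fl/fl library, with a log2 fold change of -2.05 ± 0.22 (SE) and adjusted p = 1.34e-05 in edgeR. Uqcrc1 was at 49.9, 48.3 and 48.5 CPM against 110, 93.2 and 91.7 CPM, a log2 fold change of 1.01 ± 0.12 (SE) with adjusted p = 2.78e-05 in edgeR, and was the only gene of this complex that rose. Its change lay at the limit of 2-fold, and the log2 fold change was 0.99 without the third Pdk4fl/fl library and 0.70 with the length trend removed. Per 100 reads on Uqcrc1, Uqcrh had 281, 311 and 534 reads in Pdk4fl/fl cells and 35.9, 48.75 and 51.4 reads in Pdk4SMKO cells, an 8.02-fold lower ratio (exact two-sided permutation p = 0.1). The pair was chosen after its values had been seen, as the ends of the range, so this test gives no support. These genes also differ in length, with 1237 bases for Uqcrh and 4135 for Uqcrc1. With the length trend removed, the log2 fold change of Uqcrh was -1.89.

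Uqcrc2, which encodes the other core protein, was at 79.6, 78.8 and 105 CPM against 60.4, 56.5 and 63.9 CPM, a ratio of 0.685 (adjusted p = 0.00521, edgeR). Uqcrfs1, the gene of the Rieske iron-sulfur subunit, was at 112, 125 and 149 CPM against 83.4, 88.5 and 85.3 CPM (log2 fold change -0.58 ± 0.13 (SE)), and with library size alone its log2 fold change was 0.03. Cyc1, which encodes cytochrome c1, was at 66.3, 72.2 and 91.9 CPM against 85.1, 93.7 and 86.0 CPM, and the genotypes overlapped (log2 fold change 0.20 ± 0.14 (SE)). Cycs, the gene of somatic cytochrome c, was lower, at 41.3, 44.0 and 66.9 CPM against 32.3, 28.3 and 30.6 CPM, with a log2 fold change of -0.74 ± 0.19 (SE). The ratio of Cyc1 to Cycs, also chosen after the values had been seen, was thus 1.89-fold higher in Pdk4SMKO cells, without overlap (exact two-sided permutation p = 0.1). Of the supernumerary subunits, Uqcr10 and Uqcrq were lower by 0.77 ± 0.26 (SE) and 0.67 ± 0.19 (SE) on the log2 scale, whereas Uqcrb and Uqcr11 did not pass the test and overlapped between the genotypes.

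In complex IV, 12 of 17 subunit genes were tested, of which 7 were lower and 2 higher, against 37.1% and 42.0% of all genes. Their median log2 fold change was -0.93. Of the 55 genes tested, Cox7a2l had the most negative fold change. Its product is a relative of subunit 7A that has been described as joining complexes III and IV, a role not examined in these cells. Cox7a2l was at 547, 556 and 731 CPM in Pdk4fl/fl libraries and at 99.4, 119 and 139 CPM in Pdk4SMKO libraries, with a log2 fold change of -2.36 ± 0.17 (SE) and adjusted p = 7.36e-07 in edgeR. Set against other subunit genes of complex IV, its ratio to Cox4i1 was 2.75-fold lower in Pdk4SMKO cells, at 150, 139 and 127 reads per 100 on Cox4i1 against 44.1, 50.8 and 56.7. Its ratio to Cox7a2 was also 2.75-fold lower (exact two-sided permutation p = 0.1 for both ratios). Both pairs were chosen after their values had been seen.

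Cox4i1, which encodes the ubiquitous isoform of subunit 4, was at 364, 400 and 575 CPM against 226, 234 and 245 CPM, with a log2 fold change of -0.93 ± 0.17 (SE). It shares positions with Emc8 on the other strand. Cox5a, which encodes subunit 5A, was at 72.3, 77.3 and 111 CPM against 49.7, 42.3 and 43.7 CPM (log2 fold change -0.94 ± 0.17 (SE)). Cox5b, by contrast, was at 37.9, 47.3 and 62.3 CPM against 65.8, 61.5 and 72.3 CPM, higher by 0.44 ± 0.18 (SE) on the log2 scale with adjusted p = 0.0408 in edgeR, although one Pdk4fl/fl library lay above the lowest Pdk4SMKO library. Cox7b, Cox6b1, Cox8a and Cox7a2, all encoding small nuclear subunits, were lower by 1.22, 1.13, 1.02 and 1.01 on the log2 scale. In each of these 4 the third Pdk4fl/fl library was the highest, as for Cox7a2 at 53.5, 66.3 and 135 CPM against 44.7, 37.1 and 44.2 CPM. Without that library Cox7a2l alone kept a 2-fold fall among the subunits of complex IV, and the median of the 12 was -0.62. Cox6a1, Cox6c and Cox7c did not pass the test, and their values overlapped between the genotypes. Cox6c shares positions with Vps13b on the other strand.

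Subunits 4, 6A, 6B, 7A and 8 of complex IV each have a second gene for a tissue-restricted isoform, and in these cells no such second gene had more than 32 reads in any library. Cox6b2, the testis isoform of subunit 6B, had 0, 0 and 2 reads in Pdk4fl/fl libraries and 32, 13 and 28 in Pdk4SMKO libraries, 26.8-fold more with a 95% exact counting interval of 7.16 to 225. It amounted to 2.28, 1.10 and 2.08 reads per 100 on Cox6b1 in Pdk4SMKO cells. Cox6a2, the heart and skeletal muscle isoform of subunit 6A, went the other way, with 8, 12 and 6 reads against 2, 1 and 1, or 0.113-fold with an interval of 0.0286 to 0.325. Cox4i2, an isoform of lung and smooth muscle, had 5, 6 and 1 reads against 12, 8 and 5, and the interval of its ratio, 0.74 to 3.34, included equal levels. Within libraries, Cox4i2 to Cox4i1 was 3.01-fold higher, Cox6b2 to Cox6b1 41.1-fold higher and Cox6a2 to Cox6a1 6.08-fold lower in Pdk4SMKO cells. With a prior count of 2 these were 2.44-fold, 14.9-fold and 3.85-fold (exact two-sided permutation p = 0.1 for each). Such ratios were taken only where both genes had over 3 reads in every library of at least 1 genotype. Cox4i2 and Cox6b2 met this through Pdk4SMKO cells alone and Cox6a2 through Pdk4fl/fl cells alone. The tests of these ratios are therefore no support for a difference, and the size of each ratio depends on the prior count. Cox7a1 had 0, 0 and 3 reads against 1, 3 and 5, Cox8b had 4, 0 and 0 against 1, 1 and 0, and Cox8c had none in any library. Cox4i2, Cox6a2, Cox7a1, Cox8b and Cox8c had too few counts to be tested, and so did Cox17, which encodes a copper chaperone and had 0 reads in all 6 libraries. A row named Gm21987, which overlaps Cox17 on the same strand, had 4, 3 and 3 reads against 60, 72 and 57, so the zeros of Cox17 are no measure of its mRNA.

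Of the 8 assembly factors of complex IV that were tested, 4 were lower and 2 higher, against 37.1% and 42.0% of all genes. Their median of -0.44 became 0.17 with library size alone. Heme A is made by the products of Cox10 and Cox15 in turn, and these genes moved apart. Cox10 was at 17.6, 18.2 and 15.9 CPM against 11.8, 12.9 and 11.5 CPM (log2 fold change -0.51 ± 0.15 (SE)). Cox15 was at 12.6, 11.3 and 11.6 CPM against 27.6, 21.5 and 24.1 CPM (log2 fold change 1.05 ± 0.16 (SE)), and it shares positions with Entpd7 and Cutc on the other strand. Among genes of copper delivery, Cox11 was higher, at 6.47, 6.20 and 5.45 CPM against 10.6, 9.95 and 9.32 CPM, and Cox19 lower, at 44.4, 47.99 and 53.7 CPM against 31.0, 27.8 and 28.9 CPM. Cox20, which encodes a chaperone of the mitochondrially encoded subunit 2, had 35, 32 and 35 reads against 10, 16 and 13 (log2 fold change -1.84 ± 0.38 (SE)). An antisense row over Cox20 moved the other way, from 38, 50 and 31 reads to 196, 224 and 253, and as no source used here says whether strand was counted, reads of the 2 rows cannot be told apart. Cox16 was lower by 0.75 ± 0.29 (SE) on the log2 scale, while Cox14 and Cox18 did not pass the test.

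**Figure D2:**
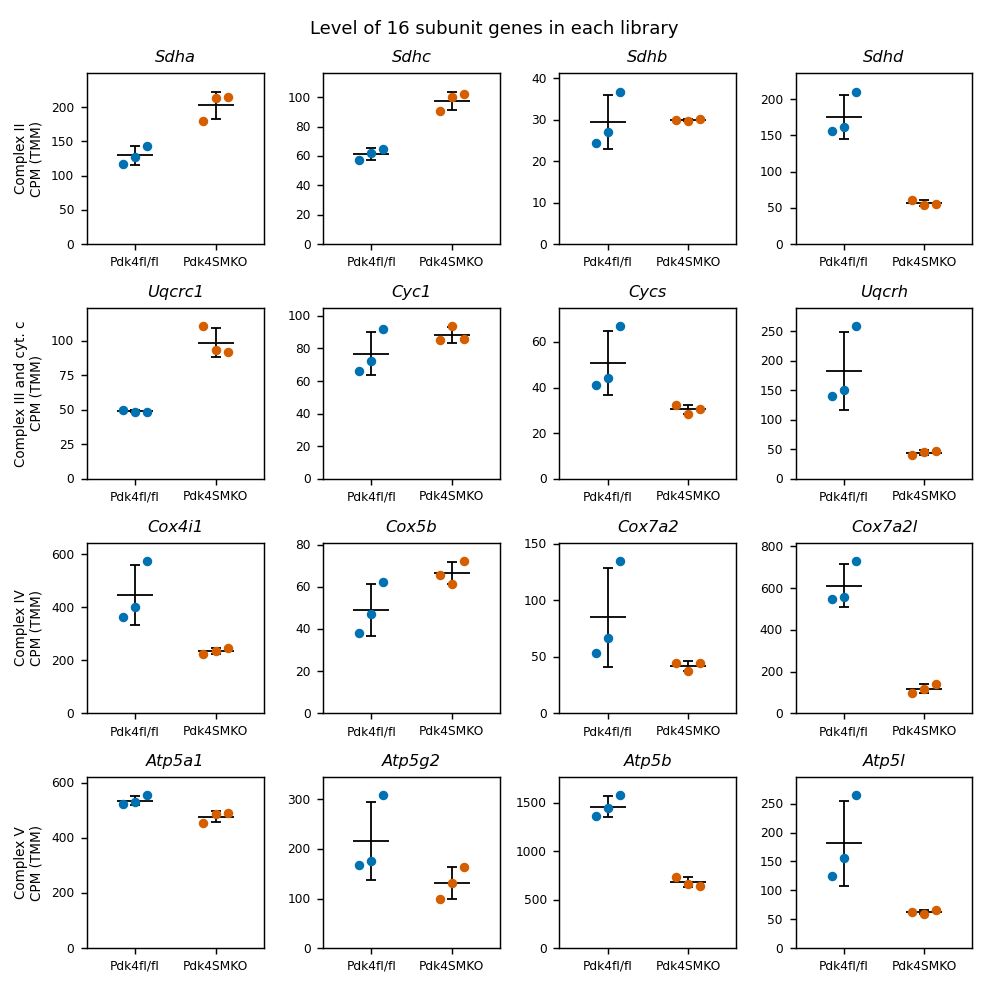
The level of 16 subunit genes is plotted in CPM after TMM normalization, with 1 point per library, the mean as a horizontal line and the SD (n = 3) as error bars, and each row holds genes of 1 complex. In the right-hand column Sdhd, Uqcrh, Cox7a2l and Atp5l are lower in all Pdk4SMKO libraries, whereas Sdha, Sdhc and Uqcrc1 are higher, and the third point of Pdk4fl/fl is the highest in most panels.

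The subunit genes of complex V moved mostly in 1 direction. Of its 15 subunit genes, 12 were lower and 0 higher at an adjusted p under 0.05 in edgeR, against 37.1% and 42.0% of all genes. Also at an unadjusted p under 0.05 and in DESeq2, 0 were higher. The median log2 fold change was -0.92. This was -1.04 with the length trend removed, -0.73 without the third Pdk4fl/fl library and -0.30 with library size alone, where 6 genes were lower and 2 higher. The distance to the median of all genes was -1.036 with TMM and -0.916 with the length trend removed. The summed level of the 15 genes was 3628, 3908 and 5095 CPM in Pdk4fl/fl libraries and 2278, 2254 and 2329 CPM in Pdk4SMKO libraries, 0.54-fold.

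In the catalytic head, the genes of the alternating alpha and beta subunits differed. Atp5b, which encodes the catalytic beta subunit, was at 1362, 1447 and 1575 CPM against 738, 660 and 638 CPM, with a log2 fold change of -1.11 ± 0.13 (SE) and adjusted p = 1.79e-05 in edgeR. Atp5a1, which encodes the alpha subunit, was at 521, 529 and 554 CPM against 453, 485 and 489 CPM. Its values did not overlap between the genotypes, but the log2 fold change of -0.17 ± 0.11 (SE) did not pass the test (adjusted p = 0.185, edgeR), and with upper-quartile scaling or library size alone its sign was positive (0.04 and 0.44). Per 100 reads on Atp5b, Atp5a1 had 38.3, 36.6 and 35.1 reads in Pdk4fl/fl cells and 61.4, 73.6 and 76.6 in Pdk4SMKO cells, a 1.92-fold higher ratio (exact two-sided permutation p = 0.1). This pair too was chosen after its values had been seen.

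The 3 genes of the central rotor stalk all fell past 2-fold, as did 26.5% of all genes tested. Atp5c1, which encodes the gamma subunit, was at 275, 289 and 371 CPM against 126, 123 and 137 CPM (log2 fold change -1.27 ± 0.14 (SE)). Atp5d, the delta subunit gene, was at 260, 301 and 372 CPM against 163, 151 and 135 CPM, a log2 fold change of -1.06 ± 0.15 (SE), and it overlaps Cbarp on the other strand. Atp5e, the epsilon subunit gene, was at 90.1, 116 and 227 CPM against 43.9, 48.3 and 61.3 CPM (log2 fold change -1.498 ± 0.30 (SE)).

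Subunit c of the membrane ring is encoded by 3 genes whose mature proteins are the same. Atp5g1 was at 92.0, 98.7 and 169 CPM against 48.5, 47.2 and 51.4 CPM, Atp5g2 at 167, 175 and 308 CPM against 98.1, 131 and 163 CPM, and Atp5g3 at 206, 224 and 369 CPM against 169, 161 and 173 CPM. All 3 fell, with log2 fold changes of -1.29 ± 0.21 (SE), -0.73 ± 0.25 (SE) and -0.67 ± 0.20 (SE). Atp5g1 had 55.2, 56.4 and 54.8 reads per 100 on Atp5g2 in Pdk4fl/fl cells, a narrow range, and 49.5, 36.0 and 31.5 in Pdk4SMKO cells (1.45-fold lower, exact two-sided permutation p = 0.1). The ratio of Atp5g3 to Atp5g2 overlapped between the genotypes (p = 0.9 by the same exact test).

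In the peripheral stalk, Atp5f1 (subunit b) and Atp5o (the oligomycin sensitivity-conferring protein) were lower by 0.90 ± 0.14 and 0.92 ± 0.16 (SE) on the log2 scale, whereas Atp5h (subunit d) and Atp5j (coupling factor 6) had values of -0.38 ± 0.23 and 0.45 ± 0.21 (SE) and did not pass the test. Atp5f1, Atp5j and Atp5o each overlap other genes in the annotation. Among the subunits e, f and g of the membrane part, encoded by Atp5k, Atp5j2 and Atp5l, Atp5l fell most, from 124, 156 and 264 CPM to 62.5, 58.5 and 65.7 CPM (log2 fold change -1.54 ± 0.24 (SE)). Atp5j2 was lower by 0.99 ± 0.26 (SE) and Atp5k by 0.91 ± 0.31 (SE) on the log2 scale. A pair of genes named after the synthase but not part of it, plotted as complex V assembly factors, moved in opposite directions. Atp5s, which encodes coupling factor B, rose from 1.27, 1.76 and 2.27 CPM to 5.05, 4.43 and 6.38 CPM. Atp5sl, whose product takes part in building complex I, fell from 13.1, 11.6 and 11.5 CPM to 4.61, 5.37 and 5.35 CPM.

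**Figure D3:**
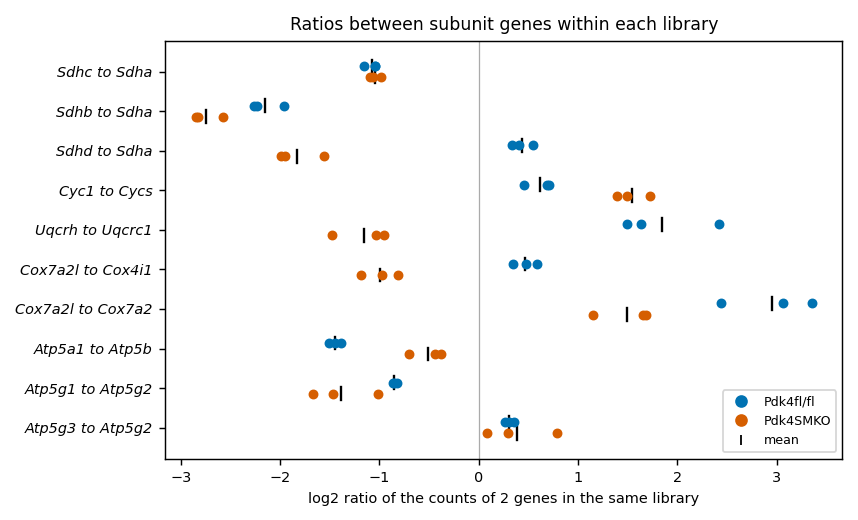
The plot gives the log2 ratio of the counts of 2 genes within each library, with a point per library and the mean of each genotype as a bar. The ratios of Sdhd to Sdha, Uqcrh to Uqcrc1 and Cox7a2l to Cox4i1 are lower in all Pdk4SMKO libraries, whereas the ratios of Sdhc to Sdha and Atp5g3 to Atp5g2 overlap.

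As a comparison, the median over the 36 subunit genes of complex I was -0.19, with 10 lower and 5 higher at an adjusted p under 0.05, and 2 and 3 with a 2-fold change. The sign of this median was not stable. Without the third Pdk4fl/fl library it was 0.12, with 9 lower and 13 higher at an adjusted p under 0.05. It was 0.02 with upper-quartile scaling and 0.42 with library size alone, where 1 gene was lower and 19 higher. The assembly genes that the symbols above do not take in were counted from fixed lists, and their counts are to be read against the 42.0% of all genes that were higher and the 37.1% that were lower. Of 6 for complex III, 3 rose and 1 fell, with Lyrm7, which helps insert the Rieske protein, at 0.133, 0.00 and 0.454 CPM against 2.24, 2.39 and 2.06 CPM, and Uqcc2 lower by 1.10 on the log2 scale. Of 16 tested genes for complex IV and its relatives, 8 rose and 4 fell. Those past 2-fold upwards were Coa3 (log2 fold change 1.301), Coa5 (1.88), Pet100 (1.45), Sco1 (1.15), Taco1 (2.28) and Tmem177 (3.51). Of these, Sco1 carries copper to the complex and Taco1 acts in translating its mitochondrially encoded subunit 1. Those past 2-fold downwards were Coa7 (-1.89) and Lrpprc, whose product stabilises mitochondrial mRNAs, at 283, 304 and 284 CPM against 69.3, 66.6 and 72.6 CPM (-2.06). Of 4 for complex V, 2 rose and 1 fell, with Tmem70 at 8.07, 7.47 and 10.2 CPM against 43.2, 30.8 and 41.2 CPM.

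**Figure D4:**
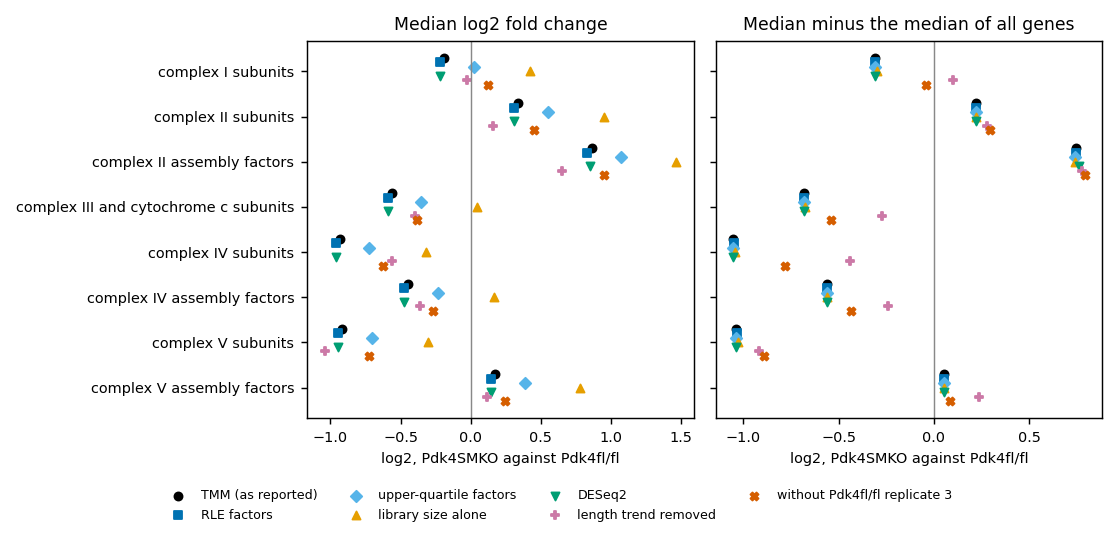
The left panel plots the median log2 fold change of each group of genes under 7 ways of processing, and the right panel the same after subtracting the median of all genes tested. Scaling moves the left-hand values together, with library size alone farthest to the right, whereas on the right the scalings coincide and only the length trend and the third Pdk4fl/fl library move the groups.

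The promoters of 48 of the 61 genes were found in the RefSeq table. CCGGAAG occurred in 19 of them (39.6%) against 8.86% of all 32851 promoters in the table, GCGCATGCG in 7 (14.6%, against 1.75%), AAGATGGCG in 3 (6.25%, against 1.40%) and TCAAGGTCA in 2 (4.17%, against 0.42%). CCGGAAG was present in 7 of the 15 genes that fell past 2-fold, in 3 of 13 that fell by less, in 1 of the 5 that rose past 2-fold, in 1 of 4 that rose by less and in 7 of 9 that did not pass the test, counting genes with a promoter in the table. A match describes the letters of the window and not a site of binding.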

How the data were processed

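RNA from 6 cultures of MASMCs was sequenced, 3 of each genotype. Counts are as deposited by the authors, who gave the reads on each gene as integers with no scaling, and the gene lengths in bases. The submitters' processing notes name the build GRCm39, while the gene identifiers are those of Ensembl's C57BL/6NJ annotation. The aligner, the counter and the use of strand are not given in the sources used here, and the labels and the methods name different library kits. Reads of overlapping genes can therefore be assigned to the wrong one. Promoter sequences came from RefSeq (GRCm38.p6) and were matched by symbol or current symbol.

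Samples were grouped by genotype. Counts were filtered with filterByExpr, normalized by TMM and fitted on genotype alone with the quasi-likelihood test of edgeR 4.0.16 (R 4.3.3, limma 3.58.1), with Benjamini-Hochberg adjustment over all 14085 genes tested. The methods' thresholds of p under 0.05 and a 2-fold change were applied, here to the adjusted p. The script was tested on simulated data. Nothing beyond the replicate numbers says whether cultures shared animals, so p-values measure the spread between these cultures. Ratios between genes were taken within each library with 0.5 added to each count, and compared by exact two-sided permutation. Low counts were compared by an exact binomial interval over summed counts.

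The genes and lists were chosen with earlier results of these data known. Named were Pdk4, fixed core and isoform genes, the 2 lowest and 2 highest of each group, all members past 2-fold or not tested, and genes of the assembly and quinone lists past 2-fold. Alternatives were DESeq2 1.42.0, 3 other scalings, 2 other filters, the replicate number as a block, protein-coding genes alone, removal of the length trend, a prior count of 2 and each library left out. The ratios beyond the isoform pairs were added after the values were seen. No list was tested as a set.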

Additional observations from a re-analysis of the deposited data

How the results depend on the processing

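Among the alternative values of named genes, 529 kept their direction and their side of the thresholds, 44 no longer passed, 15 newly passed and 10 changed sign. Sdhd, Uqcrh, Cox7a2l and Cox20 (lower) and Sdhaf4 and Atp5s (higher) passed at 2-fold under all 15 alternative fits, and 12 of the 15 lower genes and 4 of the 5 higher ones passed at an adjusted p under 0.05 in all of them, Cox6b2 being untested with at least 10 counts in every library. With library size alone, 4 genes were lower and 12 higher at 2-fold, and 12 and 18 at an adjusted p under 0.05. Without the fold limit, 31 were lower and 10 higher, and with the length trend removed 3 were higher at 2-fold. Leaving out each library in turn gave 9 to 20 lower genes at 2-fold, 9 without the third Pdk4fl/fl library, where Uqcrc1, Cox6b1, Cox7a2, Cox7b, Cox8a, Atp5d and Atp5g1 lost the 2-fold call. Without the first Pdk4SMKO library Uqcrc1, Cox8a and Cox15 lost it, without the second Cox7a2 and Cox8a, and without the third Atp5d.

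With library size alone, the medians were 0.95 and 1.46 for the subunits and assembly factors of complex II, 0.047 for complex III with cytochrome c, and -0.32 and 0.17 for subunits and assembly factors of complex IV. They were -0.30 for complex V subunits and 0.78 for the pair Atp5s and Atp5sl, which moved in opposite directions. Upper-quartile scaling gave 0.55 for complex II subunits, -0.23 for complex IV assembly factors and 0.38 for the pair Atp5s and Atp5sl. Removing the length trend gave 0.16 for complex II subunits and -0.56 for complex IV subunits, and a minimum of 10 counts gave 0.59 for complex II assembly factors. Leaving out each library gave 0.70 to 1.13 for complex II and -0.51 to -0.27 for complex IV assembly factors.

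The log2 ratios of summed levels, in the same order of groups, were 0.58, 1.27, 0.12, -0.44, 0.36, -0.27 and 0.19 with library size alone. Upper-quartile scaling gave 0.18 and 0.87 for complex II, -0.040 for complex IV assembly factors, -0.67 for complex V subunits and -0.20 for Atp5s with Atp5sl. The signs of Atp5a1 (0.043 and 0.44) and Cox6a1 (0.0035 and 0.41) changed with upper-quartile scaling and library size, that of Uqcrfs1 (0.028) with library size, and those of Cox6a1 (0.16) and Sdhb (-0.048) without the length trend. Over the libraries left out, Cox6a1 ranged from -0.37 to 0.054, Sdhb from -0.086 to 0.21, the log2 ratio of Atp5g3 to Atp5g2 from -0.12 to 0.23 and that of Sdhc to Sdha from -0.0062 to 0.054. The cause was not tested.

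Whether the replicate numbers pair the cultures cannot be decided from 3 libraries of each genotype. Deviations of same-numbered libraries correlated at 0.04, 0.06 and 0.18, and those of differently numbered libraries at -0.13 to 0.05. With the replicate number as a block, 13 genes were lower and 5 higher at 2-fold, and 32 and 11 at an adjusted p under 0.05. Cox7a2 and Cox8a were the called genes that lost the 2-fold call.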

Other observations

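Other genes that feed or belong to these complexes lie outside the symbols used. Usmg5, which encodes a small subunit at the dimer interface of complex V, was at 102, 113 and 234 CPM in Pdk4fl/fl and 47.5, 45.7 and 50.9 CPM in Pdk4SMKO libraries (log2 fold change -1.64 ± 0.28 (SE), adjusted p = 0.000312 in edgeR). Its row shares positions with Taf5 on the other strand. 2010107E04Rik, the gene of the complex V proteolipid, had -0.56 ± 0.25 (SE) and did not pass the test (adjusted p = 0.059, edgeR). Atpif1, whose product inhibits the reverse action of the synthase, was lower by 0.72 ± 0.25 (SE) on the log2 scale. Ndufa4, now counted as a complex IV subunit, was at 126, 150 and 272 CPM against 94.3, 89.8 and 109 CPM, lower by 0.90 ± 0.25 (SE).

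Enzymes that pass electrons to ubiquinone from other substrates were counted as well. Of 6 found, 3 fell and 2 rose at an adjusted p under 0.05 in edgeR, against 37.1% and 42.0% of all genes. Prodh, which oxidises proline, had 5, 3 and 6 reads in Pdk4fl/fl libraries and 149, 144 and 174 in Pdk4SMKO libraries. Dhodh, an enzyme of pyrimidine synthesis, was at 21.3, 21.96 and 23.6 CPM against 9.53, 9.65 and 9.27 CPM. The electron transfer flavoprotein genes moved apart, with Etfa lower by 0.67 and Etfb higher by 1.76 on the log2 scale, Etfb on 8 to 71 reads per library. Gpd2, of the glycerol phosphate shuttle, overlapped between the genotypes.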
